A study of Mus musculus with 4 samples.

Results

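The genes of bone formation were examined in RNA from mouse bone marrow stromal cells of 2 ages: 33 genes that regulate osteoblasts, deposit or restrain mineral, build the bone matrix or mark osteocytes, with collagens and Wnt genes left out. They were taken by symbol from a list drawn up by what the genes do, with earlier results of these data known. All 33 had an entry in the annotation. Of these, 32 had more than 2 counts over the libraries and were tested, among 21340 genes tested and 33924 gene symbols counted. At an adjusted p under 0.05 in edgeR's quasi-likelihood test, 1 of the 32 members tested rose (3.12%) and 1 fell (3.12%). Of all genes tested, 2.28% rose and 0.45% fell. In elderly vs. mature mice, Phex rose 2.75-fold and Ibsp fell 2.62-fold. DESeq2 did not call Ibsp, and edgeR's exact test called neither.

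All mice were wild-type (WT) C57Bl/6, and the study's methods describe them as male. The 2 mature libraries came from 3-month-old and the 2 elderly libraries from 24-month-old animals, with no treatment or transgene in either group. The sources describe a pool of RNA from 3 or 4 animals for a group without saying how these were divided between its libraries, while the sample titles number 1 mouse per library. The p-values therefore measure the spread between these libraries, whether each was a pool or a single animal. The methods describe cells sorted from femurs and tibias as lineage-negative (Lin-, without Ter119, CD31 and CD45) and positive for the leptin receptor (LEPR+), whereas the sample labels name the source as whole bone marrow. Such cells are known as a pool of skeletal stem and progenitor cells that can give rise to osteoblasts and adipocytes.

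As background, mesenchymal progenitors become osteoblasts under the control of transcription factors, among them Runx2 and Sp7, and then secrete a matrix in which mineral is laid down. Mineral forms where phosphate is released and pyrophosphate, which blocks crystal growth, is removed, and a set of acidic matrix proteins binds the crystals and shapes them. Osteocytes, the cells that osteoblasts become once buried in bone, express enzymes and matrix proteins that set local and systemic phosphate.

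The sequences before the start of Ibsp and Phex are shown because these were the members that passed the test, and they end at the base before the annotated start of the counted gene. They were taken from RefSeq promoters (GRCm38.p6) and matched once each to the mouse build of the counts, at chr5:104728056-104728189 on the plus strand for Ibsp and chrX:153853245-153853468 on the minus strand for Phex. Capitals mark the homeodomain core TAATTG or its reverse complement CAATTA.
Ibsp: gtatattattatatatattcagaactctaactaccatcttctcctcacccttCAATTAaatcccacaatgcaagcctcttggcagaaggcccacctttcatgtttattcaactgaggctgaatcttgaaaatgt
Phex: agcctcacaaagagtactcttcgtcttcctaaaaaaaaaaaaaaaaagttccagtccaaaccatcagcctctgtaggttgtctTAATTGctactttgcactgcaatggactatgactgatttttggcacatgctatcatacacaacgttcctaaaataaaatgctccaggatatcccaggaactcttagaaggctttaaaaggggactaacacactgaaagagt

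Counted from the RefSeq start, the core lay from -198 to -193 in Ibsp and from -167 to -162 in Phex. It is the kind of site that proteins of the Dlx and Msx families read, but a match of letters is not a bound site. Of 32851 RefSeq promoters, 7.17% held the core on either strand in the 250 bases before the start. Promoters were found for 21 of the 33 members, 32 promoters in all, of which 3 (9.38%) held it, in Bglap, Ibsp and Phex. The core that RUNX proteins read, TGTGGT or ACCACA, stood in 6 of the 32 (18.8%), in Bglap, Dmp1, Enpp1, Mepe, Runx2 and Spp1, and in 14% of all promoters. A TATA element, TATAAA or TTTATA, stood in 6 (18.8%), in Alpl, Bglap, Ibsp, Limch1, Mepe and Spp1, and in 12.4% of all. In Ibsp it lay from -28 to -23, past the printed stretch.

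The libraries held 11930137 and 11730849 counts in mature and 10472117 and 15650518 in elderly mice, and their markers were those of the sorted cells with some blood cells beside them. Values are read counts scaled to a common library size by TMM factors (CPM), given throughout for mature replicate 1, mature replicate 2, elderly replicate 1 and elderly replicate 2. Lepr stood at 6385, 5637, 4106 and 5787 CPM, and 12 LEPR+ stromal markers summed to 31453, 31899, 19468 and 28099 CPM with none called. All 12 had a log2 fold change below 0, from -0.87 (Ebf3) to -0.06 (Il7). The mean elderly sum was 0.75 of the mature one. Neutrophil markers summed to 2219, 1257, 4756 and 4676 CPM with 8 of 11 tested called higher, and erythroid markers to 442, 194, 1466 and 1334 CPM with 7 of 9 higher. Markers that stood in the LEPR+ stromal list too (Ebf1, Vcam1 and Adipoq) were left out of the other sums. B-lineage and plasma cell markers then summed to 196, 130.0, 992 and 998 CPM with 3 of 9 higher, and macrophage markers to 29.7, 26.8, 54.0 and 95.4 CPM with 4 of 10 higher. Adipocyte markers summed to 20.4, 11.1, 33.8 and 35.7 CPM and megakaryocyte markers to 28.7, 259, 116 and 201 CPM, with none called. Endothelial markers summed to 29.9, 45.3, 50.7 and 47.9 CPM with 1 of 8 higher. Ptprc, which encodes CD45, had 4, 1, 12 and 8 counts, with 152 of its 5814 bases open to counting. In such bulk samples, fewer cells of a type and less RNA per cell cannot be told apart.

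How much of a gene could be counted differed widely among the members. The counting was per transcript and left out every base that a transcript shares with another, on either strand, so that a gene with many overlapping transcripts kept only the remainder. Of the members, Ibsp, Mgp, Snai2, Msx1, Msx2, Dlx3, Smpd3, Dmp1, Mepe, Ifitm5, Cdo1 and Snorc kept their longest transcript whole. Levels of different genes were therefore set side by side only as CPM per countable kilobase. This scale is uncertain for genes with few countable bases, such as Phex with 528, Dlx5 with 99 and Spp1 with 76, and so are their ranks. On that scale Ibsp was the most abundant member in mature mice at 3024 and Mgp in elderly mice at 3375, against 2372 for Mgp in mature and 1156 for Ibsp in elderly mice. Next in mature mice came Snai2 at 245, Phex at 97.7, Dlx5 at 63.8 and Fbln1 at 55.6, and next in elderly mice Phex at 268, Snai2 at 172, Fbln1 at 77.2, Spp1 at 66.8 and Dlx5 at 46.6.

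**Figure D1:**
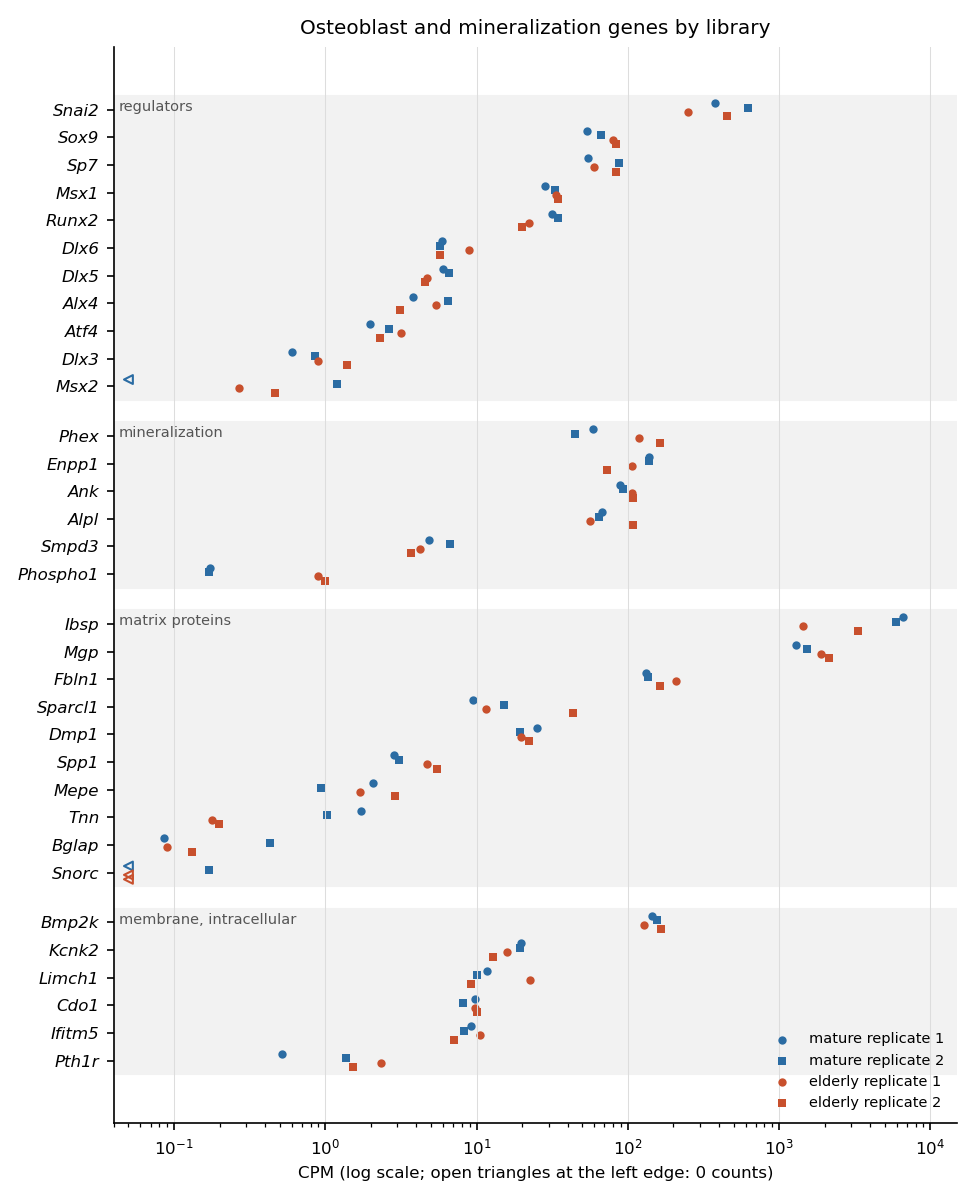
CPM of the 33 genes in each of the 4 libraries on a log axis, grouped by role, with blue for mature, orange for elderly, circles for replicate 1, squares for replicate 2 and open triangles for 0 counts. The 2 elderly libraries of Ibsp (1445 and 3337 CPM) lie left of both mature ones, and those of Phex (119 and 164 CPM) lie right. The same holds for 6 more members on the left and 9 on the right, in all 21.9% and 31.2% of the tested members. Of all genes tested, 18.1% lay to the left and 22.9% to the right in this way.

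Among all 32 tested members, 1 was called higher (3.12%) and 1 lower (3.12%) at an adjusted p under 0.05 with edgeR's quasi-likelihood test, where 2.28% and 0.45% of all genes tested were. With an unadjusted p under 0.05, 5 were higher (15.6%, against 7.61% of all genes) and 4 lower (12.5%, against 3.64%). Both elderly libraries lay above both mature ones for 10 members (31.2%, against 22.9% of all genes) and below them for 7 (21.9%, against 18.1%). The median log2 fold change was 0.14 for the members and 0.02 for all genes, with 19 members above 0 and 13 below. Within 1 of 0 on the log2 scale lay 25 of the 32 (78.1%), where 75.8% of all genes did. With 2 libraries per age, an exact permutation test of a single gene cannot go below p = 0.333.

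Ibsp encodes bone sialoprotein, an acidic matrix protein that binds mineral and marks osteoblasts. It is a single-transcript gene (ENSMUSG00000029306.8) at chr5:104728190-104740488 on the plus strand of the mm9 build, and its 2068 bases were open to counting throughout. It had 76638 and 68911 counts in mature and 16087 and 50570 in elderly mice, or 6597, 5909.8, 1445 and 3337 CPM. Ibsp was lower in each elderly library than in either mature one, and the elderly libraries differed more from each other than the mature ones did. The means were 6253 ± 486 CPM in mature and 2391 ± 1338 in elderly mice (SD, n = 2 each). The log2 fold change was -1.39 (SE 0.31, 95% interval -2.06 to -0.71), which is 2.62-fold lower (1.64 to 4.18), with an adjusted p of 0.0325.

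The call on Ibsp rested on all 4 libraries. A fit with 1 library left out has a lone library of that age and cannot measure the spread within it, a limit for every gene. The adjusted p was 0.0834 without mature replicate 1 (log2 fold change -1.31), 0.0718 without mature replicate 2 (-1.50), 0.0618 without elderly replicate 1 (-0.92) and 0.601 without elderly replicate 2 (-2.11). DESeq2 gave an adjusted p of 0.208 and edgeR's exact test at the study's dispersion of 0.2 gave 0.558. The sum of the LEPR+ stromal markers was lowest in the same library as Ibsp, elderly replicate 1. Ibsp came to 21.0% and 18.5% of that sum in mature and to 7.42% and 11.9% in elderly mice. With libraries scaled to that sum in place of TMM, a choice made after seeing the data, the log2 fold change was -1.03 with an adjusted p of 0.0079. The median of all genes then moved to 0.47.

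**Figure D2:**
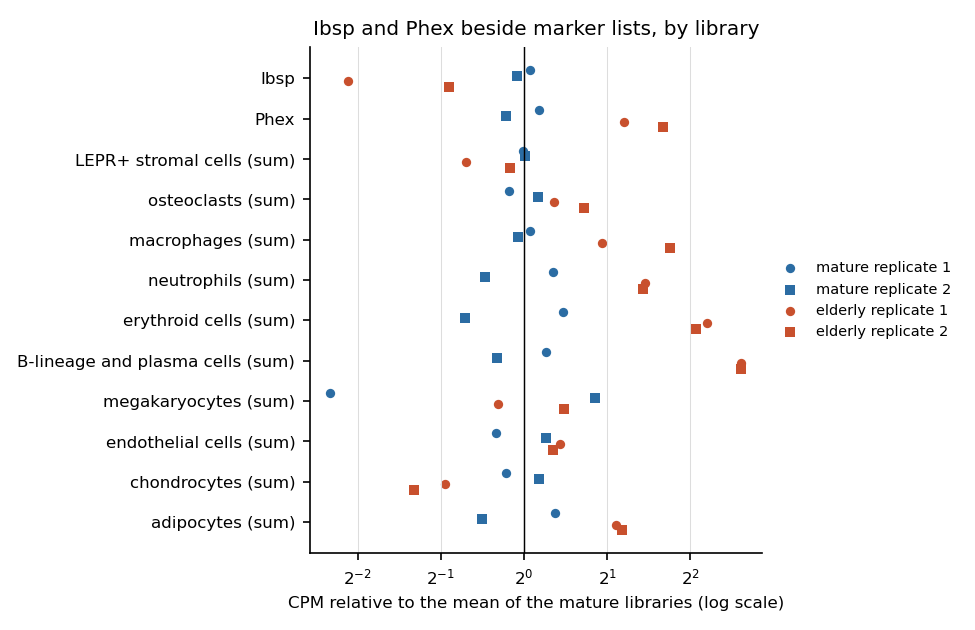
CPM of Ibsp, Phex and the summed markers of 10 cell types in each library, each divided by its mean over the mature libraries, on a log axis (the other sums leave out LEPR+ stromal markers and Sox9). Ibsp lies left of the line in both elderly libraries and further left than the LEPR+ stromal sum (19468 and 28099 CPM in elderly against 31453 and 31899 CPM in mature mice). In both elderly libraries Phex lies right of the line, as do the neutrophil, erythroid, B-lineage, macrophage, osteoclast, adipocyte and endothelial sums.

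Beside Ibsp on chromosome 5 lie Sparcl1, Dmp1, Mepe and Spp1, in a cluster of 362 kb known for genes of mineralized tissue, and none of these passed the test. Dmp1, dentin matrix protein and an osteocyte marker, had 25.2, 19.5, 19.8 and 22.1 CPM and a log2 fold change of -0.09 (95% interval -0.65 to 0.46, adjusted p = 0.948). Mepe, another osteocyte matrix protein that gives rise to an inhibitor of mineralization, had only 24, 11, 19 and 44 counts (0.62, -0.64 to 1.89, adjusted p = 0.771). Dmp1 and Mepe overlapped between the ages, and the interval of Dmp1, at -96.6 kb from the start of Ibsp, ended short of the log2 fold change of Ibsp.

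Spp1, which encodes osteopontin and starts 135.9 kb from the start of Ibsp, had 33, 36, 52 and 83 counts. Both elderly libraries were above both mature ones, with a log2 fold change of 0.78 (-0.07 to 1.62, adjusted p = 0.508). Its 76 countable bases, 74 of them in the longest transcript (4.91% of its length), make these counts a small sample of the gene. Sparcl1, a secreted relative of osteonectin at the far end of the cluster, had 9.47, 15.2, 11.6 and 43.3 CPM (1.16, 0.15 to 2.18, unadjusted p = 0.028, adjusted p = 0.326). Its elderly libraries differed by 3.74-fold, and only elderly replicate 2 was above both mature libraries. Without elderly replicate 2 the log2 fold change was -0.09, and without mature replicate 2 it was 1.51 with an adjusted p of 0.0281.

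**Figure D3:**
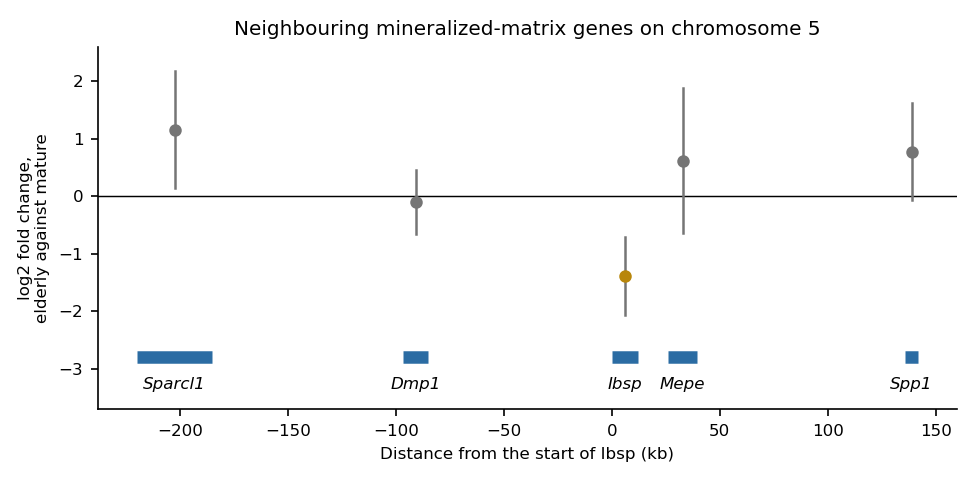
Log2 fold change, elderly against mature, of the 5 members in the chromosome 5 cluster by distance from the start of Ibsp in kb, with bars for the 95% interval of the fit and blue blocks for the extent of each gene. Ibsp (-1.39) is the member below the others, with the 4 neighbours between -0.09 and 1.16.

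The remaining matrix proteins were not called. Mgp, matrix Gla protein and an inhibitor of calcification, had 1300.4, 1536, 1893 and 2143 CPM. Both elderly libraries were above both mature libraries, at means of 2018 ± 176 and 1418 ± 167 CPM (SD, n = 2 each), with a log2 fold change of 0.51 (0.07 to 0.94, unadjusted p = 0.025, adjusted p = 0.311). Scaled to the LEPR+ stromal sum, Mgp had a log2 fold change of 0.96 and an adjusted p of 0.00885. That scaling was chosen after seeing the data and moved the median of all genes from 0.02 to 0.47. Fbln1, a matrix glycoprotein of elastic fibres and basement membranes, had 132, 136, 209 and 163 CPM (0.47, 0.03 to 0.91, unadjusted p = 0.037, adjusted p = 0.383), without overlap between the ages.

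Tnn, a tenascin of the osteogenic niche, was at low counts: 20 and 12 in mature and 2 and 3 in elderly mice. The ages did not overlap, and the ratio of its counts per depth was 7.23-fold lower in elderly mice (95% counting interval 2.79 to 23.8), with an unadjusted p of 0.0098 and an adjusted p of 0.182. Bglap, which encodes osteocalcin, the classic product of mature osteoblasts, had 1, 5, 1 and 2 counts, a mature-to-elderly ratio of 2.26 (counting interval 0.48 to 13.96, adjusted p = 0.898). Reads from its near-identical neighbouring copies may have been split or lost, so these counts are uncertain. Snorc, a cartilage proteoglycan of the cell membrane, had 2 counts in mature replicate 2 and 0 in the others and was not tested. Taken as 3 counts, the limit that a count of 0 allows was 0.258 CPM in mature replicate 1, 0.270 in elderly replicate 1 and 0.198 in elderly replicate 2. Counting intervals and these limits cover counting error only.

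Phex encodes an endopeptidase of the osteocyte and osteoblast membrane, whose loss in X-linked hypophosphatemia leads to phosphate wasting and poorly mineralized bone. The gene (ENSMUSG00000057457.5) lies at chrX:153596618-153853244 on the minus strand. It had 682 and 519 counts in mature and 1327 and 2489 in elderly mice, or 58.7, 44.5, 119 and 164 CPM. Both elderly libraries were above both mature libraries by more than the libraries of an age differed. The means were 51.6 ± 10.04 CPM in mature and 142 ± 31.8 in elderly mice (SD, n = 2 each). The log2 fold change was 1.46 (SE 0.23, 95% interval 0.95 to 1.96), which is 2.75-fold higher (1.94 to 3.90), with an adjusted p of 0.00478.

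Phex was also called by DESeq2 and, with libraries scaled to the LEPR+ stromal sum, by edgeR's quasi-likelihood test. That scaling moved the median of all genes to 0.47. The exact test at a dispersion of 0.2 gave an adjusted p of 0.506. The log2 fold change lay between 1.21 and 1.67 with 1 library left out, and the call was kept without mature replicate 1 or 2 but not without elderly replicate 1 (adjusted p = 0.0546) or elderly replicate 2 (0.601), and without elderly replicate 2 no gene of any kind was called. Only 528 bases of Phex were open to counting. Of these, 502 lay in its longest transcript, Phex-201 (8.01% of its length), which held 99.4% of the counts of Phex. As a share of the LEPR+ stromal sum, Phex was 0.187% and 0.140% in mature and 0.612% and 0.584% in elderly mice. The neutrophil, erythroid, B-lineage, macrophage, osteoclast, adipocyte and endothelial sums were higher in the same libraries as Phex, and their part in the result was not tested.

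Around pyrophosphate, the genes that make, move and break it down were not called. Enpp1, the membrane enzyme that generates pyrophosphate, had 138, 138, 106 and 72.6 CPM. Both elderly libraries were below both mature ones, with a log2 fold change of -0.63 (-1.10 to -0.15, unadjusted p = 0.014, adjusted p = 0.228). Its protein-coding transcript Enpp1-001 had 1511, 1532, 1052 and 1018 counts, while the retained-intron transcript Enpp1-005 had 92, 67, 118 and 79. The mRNA was lower in both elderly libraries, whereas the retained-intron transcript overlapped between the ages.

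Ank, which exports pyrophosphate and its precursors from the cell, had 89.0, 92.8, 106 and 108 CPM (0.24, -0.18 to 0.65, adjusted p = 0.724), without overlap. Alpl, tissue-nonspecific alkaline phosphatase, which breaks pyrophosphate down and is an early osteoblast marker, had 67.7, 64.1, 56.4 and 108 CPM (0.32, -0.27 to 0.90, adjusted p = 0.737). Only elderly replicate 2 of Alpl stood above the mature libraries, and without it the log2 fold change was -0.23. Inside matrix vesicles, Phospho1 frees phosphate from lipid headgroups that sphingomyelinases such as Smpd3 release. Phospho1 had 2, 2, 10 and 15 counts, a ratio of 5.53 (counting interval 1.91 to 21.9, adjusted p = 0.4), from 123 countable bases, none of them in its longest transcript. Smpd3 was at 4.82, 6.69, 4.22 and 3.70 CPM (-0.54, -1.35 to 0.27, adjusted p = 0.67), lower in both elderly libraries without passing the test.

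Of the 11 regulators, edgeR's quasi-likelihood test called 0 in either direction, where 2.28% of all genes tested were called higher and 0.45% lower. At an unadjusted p under 0.05, 1 was lower (Runx2, 9.09%, against 3.64% of all genes) and 0 higher (against 7.61%). DESeq2 and the exact test also called 0. Runx2, the factor without which osteoblasts do not form, had 31.6, 34.4, 22.4 and 20.1 CPM. Both elderly libraries were lower, with a log2 fold change of -0.64 (-1.15 to -0.12, unadjusted p = 0.019, adjusted p = 0.268). None of its 1140 countable bases lay in its longest transcript. Of its counts, 57.4% were on a transcript annotated for nonsense-mediated decay (Runx2-008), 39.0% on one with a retained intron (Runx2-005) and 3.63% on the protein-coding Runx2-014, so the main mRNA was not read here.

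Sp7, or osterix, which acts after Runx2, had 54.7, 87.5, 60.1 and 83.8 CPM. The replicates of an age spread more than the ages differed, with a log2 fold change of 0.02 (-0.54 to 0.58, adjusted p = 0.99). Its interval runs from 1.45-fold lower to 1.49-fold higher.

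The Dlx and Msx genes, homeobox factors of the limb and skull, were at low to moderate levels. Per countable kilobase Dlx5 had the highest value, at 63.8 in mature and 46.6 in elderly mice, ahead of Msx1 at 15.9 and 17.6. The value of Dlx5 rests on 99 countable bases, so this order is uncertain. Msx1 had 28.5, 33.2, 33.4 and 34.6 CPM (0.14, -0.36 to 0.64, adjusted p = 0.912). Dlx5 had 6.03, 6.60, 4.67 and 4.55 CPM from 99 countable bases (-0.45, -1.20 to 0.29, adjusted p = 0.701) and Dlx6 had 5.94, 5.75, 8.98 and 5.74 CPM (0.33, -0.43 to 1.08, adjusted p = 0.824). Dlx5 was lower in both elderly libraries, though its log2 fold change was 0.00 once libraries were scaled to the LEPR+ stromal sum. Under that scaling the median of all genes was 0.47. Dlx3 had 7, 10, 10 and 21 counts (adjusted p = 0.844). Msx2 was erratic, at 0, 14, 3 and 7 counts (adjusted p = 0.929), with 0 and the highest count both in mature mice.

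Snai2, a zinc-finger factor of mesenchymal cells, was the most abundant regulator per countable kilobase. It had 375, 622, 249 and 450 CPM, with overlap between the ages (-0.51, -1.14 to 0.12, adjusted p = 0.585). Sox9, the driver of cartilage formation, had 53.5, 66.8, 80.3 and 84.1 CPM, higher in both elderly libraries without passing the test (0.45, -0.003 to 0.91, unadjusted p = 0.051, adjusted p = 0.449). The other chondrocyte markers summed to 25.9, 34.1, 15.5 and 12.0 CPM, and of these 7 Col2a1 was higher and Acan and Hapln1 were lower. Atf4, a stress-responsive factor needed for osteocalcin expression, had 23, 31, 35 and 35 counts (0.23, -0.81 to 1.26, adjusted p = 0.936). Alx4, a homeobox factor of skull and limb, had 44, 76, 60 and 47 counts (-0.29, -1.21 to 0.63, adjusted p = 0.892). In CPM, Atf4 and Alx4 overlapped between the ages.

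**Figure D4:**
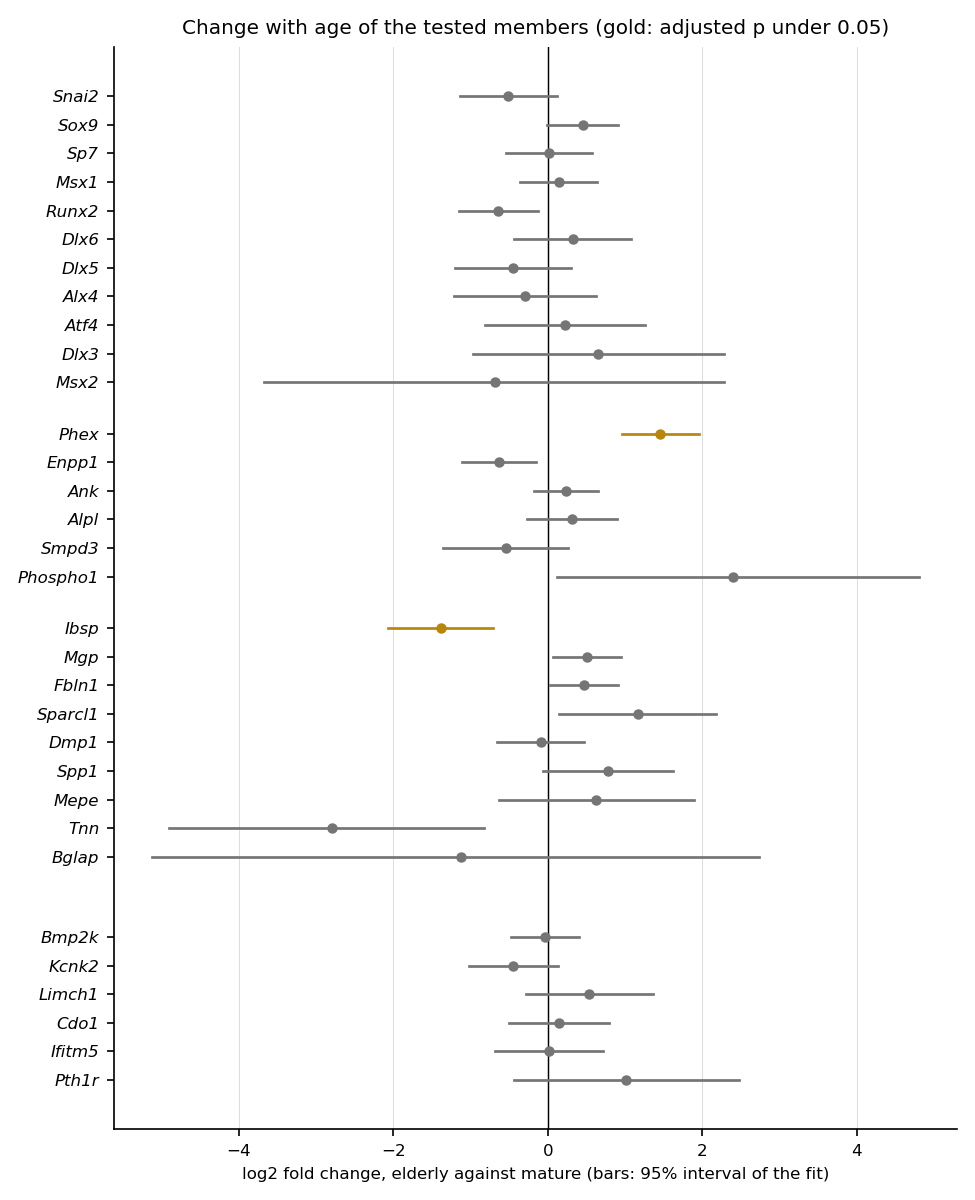
Log2 fold change, elderly against mature, of the 32 tested members with the 95% interval of edgeR's quasi-likelihood fit, grouped by role in the order regulators, mineralization, matrix proteins and membrane or intracellular proteins. Phex (1.46) and Ibsp (-1.39), in gold, had an adjusted p under 0.05, and the widest intervals belong to genes of few counts such as Bglap and Msx2.

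Of the 6 receptors, membrane and intracellular proteins, edgeR's quasi-likelihood test, DESeq2 and the exact test called 0, and 0 had an unadjusted p under 0.05. By the quasi-likelihood test, 2.28% of all genes were called higher and 0.45% lower, and at an unadjusted p under 0.05 7.61% and 3.64%. Pth1r, the receptor of parathyroid hormone, had 6, 16, 26 and 23 counts (1.01, -0.43 to 2.47, adjusted p = 0.657), higher in both elderly libraries. Ifitm5, a membrane protein confined largely to bone-forming cells, had 9.12, 8.23, 10.5 and 7.13 CPM and differed little between the means (0.02, -0.68 to 0.71, adjusted p = 0.991). Kcnk2, a potassium channel that senses membrane stretch, had 19.8, 19.4, 15.99 and 12.9 CPM, lower in both elderly libraries (-0.44, -1.02 to 0.13, adjusted p = 0.612). Scaled to the LEPR+ stromal sum, the log2 fold change of Kcnk2 was 0.04, where the median of all genes was 0.47.

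Limch1, a regulator of non-muscle myosin, had 11.7, 10.1, 22.7 and 9.17 CPM (0.54, -0.28 to 1.36, adjusted p = 0.673). Only elderly replicate 1 was above the mature libraries, and without it the log2 fold change was -0.27. Cdo1, cysteine dioxygenase, had 9.73, 8.15, 9.70 and 10.03 CPM (0.14, -0.50 to 0.79, adjusted p = 0.934). Bmp2k, a kinase named for its induction by bone morphogenetic protein, was the most abundant of the 6 per countable kilobase, at 29.2 and 28.6 in mature and elderly mice, and had 145, 156, 128 and 166 CPM (log2 fold change -0.03, -0.48 to 0.41, adjusted p = 0.978). Cdo1 and Bmp2k overlapped between the ages.

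The sign of a member's change depended on a single library for some members and not for others. Leaving out 1 library turned the sign of Sp7, Dlx6, Msx2, Atf4, Alx4, Alpl, Bglap, Ifitm5, Dmp1, Sparcl1, Limch1, Cdo1 and Bmp2k at least once. Ibsp, Runx2, Enpp1, Tnn, Smpd3, Dlx5, Kcnk2 and Snai2 stayed below 0 in each of the 4, and Phex, Mgp, Fbln1, Spp1, Sox9, Ank, Phospho1, Dlx3, Msx1, Mepe and Pth1r above 0. None of the members whose sign turned had been called.

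**Figure D5:**
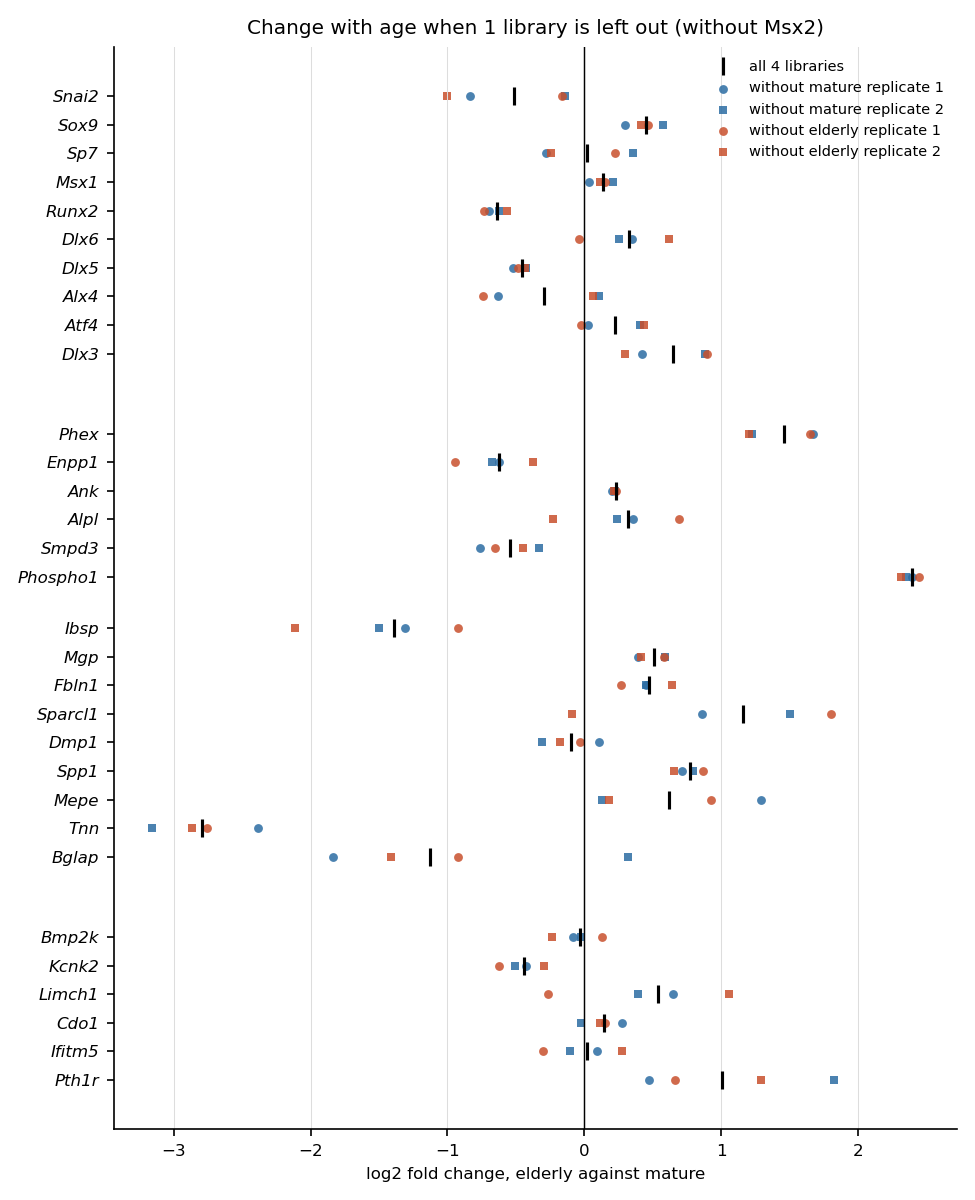
Log2 fold change of the tested members with all 4 libraries (black line) and with each library left out in turn (blue for a mature, orange for an elderly library, circle for replicate 1, square for replicate 2). Msx2, whose values ran from -1.66 to 5.25, is not drawn, and Ibsp moved between -2.11 and -0.92 and Phex between 1.21 and 1.67.

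Other genes of bone formation were read beside the members. Of 64 listed, 63 were tested, at a median log2 fold change of -0.06, with 30 above 0 and 33 below. EdgeR's quasi-likelihood test called 0 higher, against 2.28% of all genes, and DESeq2 and the exact test also called 0. At an unadjusted p under 0.05, 4 were higher (6.35%, against 7.61% of all genes). The quasi-likelihood test called 3 lower (4.76%, against 0.45% of all genes), and 6 were lower at an unadjusted p under 0.05 (9.52%, against 3.64%). The 3 were Cdh2, Nt5e and Hey1.

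Cdh2, which encodes N-cadherin, an adhesion protein of osteoblasts and their progenitors, had 215, 154, 81.1 and 85.2 CPM and fell by 1.15 on the log2 scale (SE 0.22, adjusted p = 0.0132). Nt5e, which encodes the progenitor surface enzyme CD73, had 299, 305, 145 and 164 CPM and fell by 0.97 (SE 0.19, adjusted p = 0.0181). Hey1, a target of Notch and of bone morphogenetic protein, had 41.4, 47.9, 22.2 and 23.2 CPM and fell by 0.98 (SE 0.23, adjusted p = 0.0405). In all 3 both elderly libraries were below both mature libraries. None of the 3 was called with libraries scaled to the LEPR+ stromal sum, by the exact test, or without elderly replicate 1 or elderly replicate 2. Over all genes, 96 were called lower in the main fit, 27 with the stromal scaling and 33 by the exact test. The stromal scaling moved the median of all genes from 0.02 to 0.47. Leaving out an elderly library leaves a lone one of that age, a limit for every gene. On protein-coding transcripts alone Cdh2 was not called, and with transcripts tested singly Hey1 was not. Without mature replicate 1 the call was kept for Hey1 and without mature replicate 2 for Cdh2.

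Osteoclast markers were read beside these genes because osteoclasts resorb the matrix that osteoblasts lay down. They summed to 281, 357, 411 and 528 CPM, with 2 of 7 tested called higher, Mmp9 and Atp6v0d2. Mmp9, which neutrophils also carry in their granules, had 57.2, 42.6, 154 and 168 CPM, and the neutrophil markers rose too, in 8 of 11. Atp6v0d2, a subunit of the proton pump, had 0, 0, 4 and 61 counts. The defining marker Acp5 had 2, 1, 1 and 11 counts and Calcr had 0 in every library, with 101 countable bases. Ctsk, which stromal cells also express, had 188, 171, 159 and 213 CPM and overlapped between the ages. The part of these cells in the results was not tested.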

How the data were processed

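The authors removed adapters with CutAdapt, used HISAT2 for mapping to mm9 (NCBI Build 37) and featureCounts for counting. The deposited values are whole counts per Ensembl transcript, with no normalization or filter. The strand setting is not given in the sources used here. All but 388 of 95883 transcripts matched GENCODE M1, and these held 0.0785% to 0.0888% of the counts. All 25621 transcripts without a base of their own had 0 counts, so low counts of genes with few countable bases were not read as low expression.

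Counts were summed per gene symbol, and genes with a sum over 2 were kept. The ages were compared in edgeR 4.0.16 (R 4.3.3) with TMM factors of 0.97 to 1.06 and the quasi-likelihood test (2-sided, Benjamini-Hochberg over all genes tested, prior count 0.125, biological coefficient of variation 0.262). DESeq2 1.42.0, edgeR's exact test, other filters, scalings, thresholds and left-out libraries were alternatives. Counting intervals are exact 95% intervals for the ratio of the ages' summed counts, from the binomial given their total. The fitting was tested on simulated data.

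The members and lists were chosen with earlier results of these data known. All members were named, and of the other bone genes those called. Outliers could not be tested with 2 libraries per age.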

Additional observations from a re-analysis of the deposited data

How the results depend on the processing

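With 1 library left out, 0 to 2 members were called higher and 0 lower, 0 to 1 of the other bone genes higher and 0 to 1 lower, and the members' median was 0.053 to 0.230. The lone library of an age was then assumed to vary like the other age. The exact test called 0 members in either direction and 0 other bone genes lower, and DESeq2 called 0 members lower. Without a filter, 2 members (Phex and Sparcl1) and 1 other bone gene (Fam20c) were higher. Scaling to the LEPR+ stromal sum, chosen after seeing the data, called 2 members higher (Mgp and Phex) and 0 other bone genes lower, put the members' median at 0.59 and moved all calls from 487 higher and 96 lower (83.5% higher) to 622 and 27 (95.8%). At an adjusted p under 0.01, 0 members and 0 other bone genes were lower, and with an absolute log2 fold change over 1, 1 other bone gene was. The sample titles number the mice and do not say whether equal numbers pair libraries. Deviations of same-numbered libraries correlated at 0.03 over 15019 genes, but 2 pairs cannot decide this. With the replicate block, 2 members were higher (Phex and Sparcl1), 2 lower (Enpp1, adjusted p 0.0458, and Ibsp) and of the other bone genes 1 was higher (Fam20c) and 4 lower (Cdh2, Nt5e, Hey1 and Creb3l1), with 970 genes higher and 292 lower in all. Some uncalled members changed sign. With filterByExpr, Sp7 was at -0.003 and Ifitm5 at -0.009. Without a filter Sp7 was at -0.001, and on protein-coding transcripts Sp7 was at -0.038 and Ifitm5 at -0.036. With the replicate block Msx2 was at 0.001 and Ifitm5 at -0.001, and by library size alone Bmp2k was at 0.003. Scaled to the stromal sum, Dlx5 was at 0.001, Alx4 at 0.23, Dmp1 at 0.35, Kcnk2 at 0.041 and Bmp2k at 0.39. With 1 library left out, the ranges were -0.28 to 0.36 for Sp7, -0.041 to 0.62 for Dlx6, -1.66 to 5.25 for Msx2, -0.02 to 0.44 for Atf4, -0.74 to 0.11 for Alx4, -0.23 to 0.69 for Alpl, -1.84 to 0.32 for Bglap, -0.30 to 0.28 for Ifitm5, -0.31 to 0.11 for Dmp1, -0.089 to 1.80 for Sparcl1, -0.27 to 1.06 for Limch1, -0.022 to 0.28 for Cdo1 and -0.24 to 0.13 for Bmp2k. Of 382 single-member values under alternatives with all libraries, 362 kept their direction and their side of the threshold. This count says little, since most members were uncalled from the start. It includes a prior count of 2, which leaves p-values unchanged, and DESeq2 values of Dlx3, Msx2, Bglap, Phospho1 and Tnn without an adjusted p. Of the rest, 13 changed sign, 3 lost a call on Ibsp or Phex and 4 gained a call. The cause of these shifts was not tested. Depth limits Bglap, Msx2, Phospho1, Tnn, Snorc and Dlx3, with at most 21 counts in a library.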

Other observations

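Among the other bone genes, some that did not pass the test were singled out after their values were seen. Fam20c, the kinase that phosphorylates secreted matrix proteins of bone, had 6.54, 8.75, 21.2 and 10.4 CPM (log2 fold change 1.04, SE 0.36, adjusted p = 0.219 with edgeR's quasi-likelihood test). Vdr, the vitamin D receptor, had 125, 119, 188 and 172 CPM (0.56, SE 0.19, adjusted p = 0.214). Gja1, which encodes connexin 43, the main gap junction protein of osteoblasts and osteocytes, had 3070.2, 3888, 1920 and 2879 CPM (-0.54, SE 0.24, adjusted p = 0.4). Creb3l1, a factor that drives matrix secretion in osteoblasts, had 91.6, 102, 41.2 and 81.6 CPM (-0.66, SE 0.28, adjusted p = 0.372). None of the 4 overlapped between the ages, where 22.9% of all genes lay above and 18.1% below without overlap. Of the 63 other bone genes tested, 14 (22.2%) lay above and 17 (27%) below in this way. Foxo1 (log2 fold change -0.62), Fosl1 (1.25) and Pdpn (1.58) also had an unadjusted p under 0.05 with edgeR's quasi-likelihood test. With the replicate block Fam20c was called higher and Creb3l1 lower. Sost, which osteocytes secrete to restrain bone formation, was near its detection limit in every library, at 0.34, 0.26, 0.54 and 0.13 CPM, although all its 2066 bases could be counted.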
